A study of Mus musculus with 4 samples.

Results

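The genes described here are 10 regulators of the G1 phase of the cell cycle: the D-type cyclins Ccnd1, Ccnd2 and Ccnd3, the E-type cyclins Ccne1 and Ccne2, the cyclin-dependent kinases (CDKs) Cdk4, Cdk6 and Cdk2, and the CDK inhibitors Cdkn1b (p27) and Cdkn2c (p18). They were chosen by symbol, and all 10 were found among the 24421 gene symbols of the count matrix. The cells were B16F10, a mouse melanoma line labelled with the strain C57BL/6, grown in DMEM with FBS. They were transduced with lentivirus and kept under puromycin. In 2 libraries (shControl 1 and shControl 2) the cells carried the control construct, which the labels call a control shRNA and the study's list of reagents an empty vector. In the other 2 (shLmna 1 and shLmna 2) they carried 1 short hairpin RNA against exon 8 of Lmna, which encodes the A-type lamins. Both groups were therefore transduced and selected, and effects of this one hairpin that do not pass through Lmna cannot be told apart from those of the knockdown. The labels do not say that libraries of a group came from separate cultures, so p-values measure the spread between libraries, which may be technical.

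D-type cyclins are made in response to growth signals and bind CDK4 or CDK6. The kinases then phosphorylate the retinoblastoma protein RB, which releases E2F transcription factors, and E2F raises cyclin E, the partner of CDK2 at the entry into S phase. INK4 proteins such as p18 bind CDK4 and CDK6 directly, while CIP/KIP proteins such as p21 and p27 bind complexes of cyclins with CDKs. Lamin A/C is known to bind RB, and the study also followed the growth of the knockdown cells. The comparison of shLmna with shControl asked which transcripts of this machinery differed after knockdown.

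Transcripts were counted by their 3′ ends in bulk MARS-seq, with 2494880 to 3808843 counts per library. Lmna checked the labels, with 2826 and 2684 counts in shControl 1 and 2 and 331 and 480 in shLmna 1 and 2 (log2 fold change -2.61, SE 0.142, edgeR adjusted p 7.93e-06). Levels are given in CPM, counts scaled to a common library size by the TMM method. Each gene was counted over its last 1000 transcript bases and a short stretch downstream. CPM is therefore a level per window of about equal length and was compared between genes without a further division by length. How fully each window holds the 3′ ends of its transcripts was not tested, so an order of genes by CPM is one of window counts. Of the melanocyte markers, Pmel, Mlana, Dct and Tyrp1 had 6028 or more counts in every library, while Tyr had 1 and 1 in shControl and 3 and 7 in shLmna. Of the 6 tested markers, Mlana (log2 fold change 0.51, edgeR adjusted p 0.00510) and Pmel (0.41, 0.0258) were higher and 1, the transcription factor gene Sox10, was lower. Sox10 had 5083 and 6914 counts in the shControl libraries, against 2131 and 3676 in shLmna (log2 fold change -0.89, edgeR adjusted p 0.00161). Mitf had 443 and 497 against 252 and 401 (-0.37, edgeR adjusted p 0.0804). The call of Mlana was lost without shLmna 2 (adjusted p 0.0783), and that of Pmel without shControl 2 (0.107), shLmna 1 (0.105) or shLmna 2 (0.199) and with recovered counts (0.0590), while Sox10 kept its call in every alternative run. The part of these shifts in the results on G1 genes was not tested. The 9 markers of leukocytes, endothelium, fibroblasts and epithelium summed to between 0.791 and 4.82 CPM per library, and 6 of them, Ptprc, Cdh5, Dcn, Epcam, Krt5 and Krt14, had no count in any library.

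Of the 10 genes, 8 passed the filter on low counts and were tested together with 9150 genes in all. Ccnd1 was higher in shLmna at an adjusted p under 0.05, and 0 of the 8 were lower at that threshold. Over all tested genes, 5.48% were higher and 9.74% lower by the same rule, and against these shares 1 of 8 higher and 0 of 8 lower is no result about the genes as a group. At an unadjusted p under 0.05 there were 2 genes, Ccnd1 and Ccnd2, and DESeq2 also called Ccnd1 alone. None of the 8 passed all 3 limits that the study set (adjusted p under 0.05, a log2 change over 1 in size and a mean normalized count over 5), which 1.76% of tested genes passed as higher and 5.88% as lower. The 95% interval of the log2 fold change lay between -1 and 1 for 7 of the 8 genes, the exception being Cdkn1b. Fitted changes were above 0 for 3 genes and below 0 for 5, with a median of -0.07 against -0.001 over all tested genes. The CPM of the 2 groups did not overlap for 2 genes that were higher and 2 that were lower, against 29.5% and 30.6% of all tested genes.

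The levels spanned a wide range and kept nearly the same order in both groups. In shControl the order from high to low was Cdk4, Ccnd3, Ccnd2, Cdk2, Ccnd1, Ccne1, Cdkn2c, Cdkn1b, Ccne2 and Cdk6, with mean levels from 934 CPM for Cdk4 to 0.134 CPM for Cdk6. Within these 2 libraries the ranges of neighbours did not overlap, except those of Cdkn1b and Ccne2. In shLmna, Ccnd1 stood above Cdk2 instead of below it, and its range (307 to 345 CPM) overlapped that of Ccnd2 (337 to 349 CPM). In both shLmna libraries Cdk6 and Ccne2 had fewer than 3 counts, the floor used below.

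**Figure D1:**
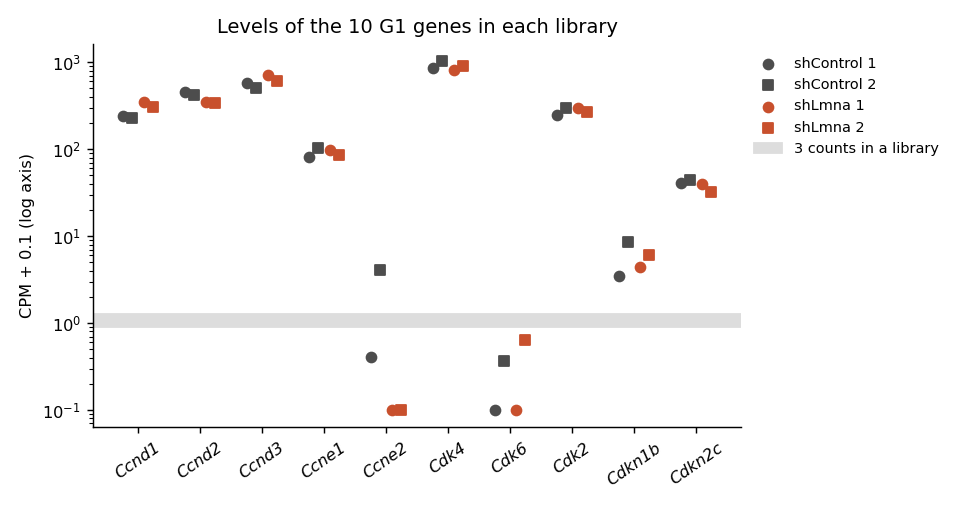
Level of each G1 gene in the 4 libraries, as TMM-scaled CPM plus 0.1 on a log axis, with shControl in grey, shLmna in orange, circles for library 1 and squares for library 2. The grey band is the level of 3 counts in a library (0.803 to 1.19 CPM), and Cdk6 lies below it in all 4 libraries while Cdk4 lies between 810 and 1021 CPM.

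Among the D-type cyclins, Ccnd1 was higher after Lmna knockdown. Ccnd1 encodes cyclin D1, a target of MAPK signalling. It had 779 and 846 counts (241 and 227 CPM) in shControl 1 and 2, and 873 and 1126 counts (345 and 307 CPM) in shLmna 1 and 2. Both shLmna libraries stood above both shControl libraries. The fitted log2 fold change was 0.48 (SE 0.125, 95% interval 0.20 to 0.76, edgeR adjusted p 0.0300), a level 1.39-fold that of shControl. The change was positive whichever library was left out, but the call was lost without shControl 2 (0.43, edgeR adjusted p 0.0532), without shLmna 1 (0.40, 0.220) and without shLmna 2 (0.57, 0.0981).

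Ccnd2, which encodes cyclin D2, went the other way in level without passing the test over 4 libraries. Its counts were 1460 and 1560 (452 and 418 CPM) in shControl and 883 and 1237 (349 and 337 CPM) in shLmna. Both shLmna libraries stood below both shControl libraries. Its log2 fold change was -0.34 (SE 0.120, 95% interval -0.61 to -0.07, edgeR adjusted p 0.0874).

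Ccnd3, which encodes cyclin D3, had the most window counts of the 3. It had 1874 and 1888 counts (580 and 505 CPM) in shControl and 1782 and 2237 counts (705 and 609 CPM) in shLmna. The groups did not overlap, with shLmna 2 only a little above shControl 1. This gave a log2 fold change of 0.27 (SE 0.131, 95% interval -0.02 to 0.57, edgeR adjusted p 0.191). Without shControl 1 it was 0.38, with an edgeR adjusted p of 0.0497. It was 0.17 without shControl 2 (0.472), 0.17 without shLmna 1 (0.668) and 0.39 without shLmna 2 (0.264).

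The make-up of the D-type cyclin counts within each library does not depend on how libraries are scaled to each other. Ccnd1 was 18.9% of the counts of the 3 genes in shControl 1 (Wilson 95% interval 17.8 to 20.2, of 4113 counts) and 19.7% in shControl 2 (18.5 to 20.9, of 4294). It was 24.7% in shLmna 1 (23.3 to 26.1, of 3538) and 24.5% in shLmna 2 (23.3 to 25.7, of 4600). Ccnd2 was 35.5% and 36.3% in shControl (intervals 34.1 to 37.0 and 34.9 to 37.8), against 25.0% and 26.9% in shLmna (23.6 to 26.4 and 25.6 to 28.2). In shControl the share of Ccnd2 was thus well above that of Ccnd1, and in shLmna the shares of both genes were close. Ccnd3 was 45.6% and 44.0% in shControl and 50.4% and 48.6% in shLmna.

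Taken as means, the share of Ccnd1 went from 19.3% ± 0.537 to 24.6% ± 0.134 and that of Ccnd2 from 35.9% ± 0.587 to 25.9% ± 1.36 (SD, n = 2 libraries each). The number of Ccnd1 counts per Ccnd2 count was 0.534 and 0.542 in shControl, and 0.989 and 0.910 in shLmna. On the log2 scale this ratio was 0.82 higher in shLmna, where the pooled SD between libraries of a group was 0.0608. With 2 libraries against 2 the smallest two-sided p of an exact permutation test is 0.333, which this ratio reached. The same smallest value was reached by 7 of the 8 ratios between pairs of genes computed here, so it separates none of them. Wilson intervals cover counting error only, and they treat each count as independent.

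The summed level of the 3 D-type cyclins was 1274 and 1150 CPM in shControl, and 1399 and 1253 CPM in shLmna. The groups overlapped in the sum, since shLmna 2 lay below shControl 1. On GRCm38 the 3 genes lie at chr7:144929931-144939925 on the minus strand (Ccnd1), chr6:127125162-127152193 on the minus strand (Ccnd2) and chr17:47505051-47599691 on the plus strand (Ccnd3). The counted bases of a gene were taken here as the last 1000 of 1 GENCODE transcript. The authors counted on RefSeq genes, so their windows may differ. The bases so taken for Ccnd1 and Ccnd2 lay wholly in the last exon and the 3′ UTR and shared no 31-base stretch with another gene. Of the 31-base stretches of Ccnd3, 1.40% also occur in the pseudogene Ccnd3-ps. In these bulk samples, fewer cells with a transcript and less of it per cell cannot be told apart.

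**Figure D2:**
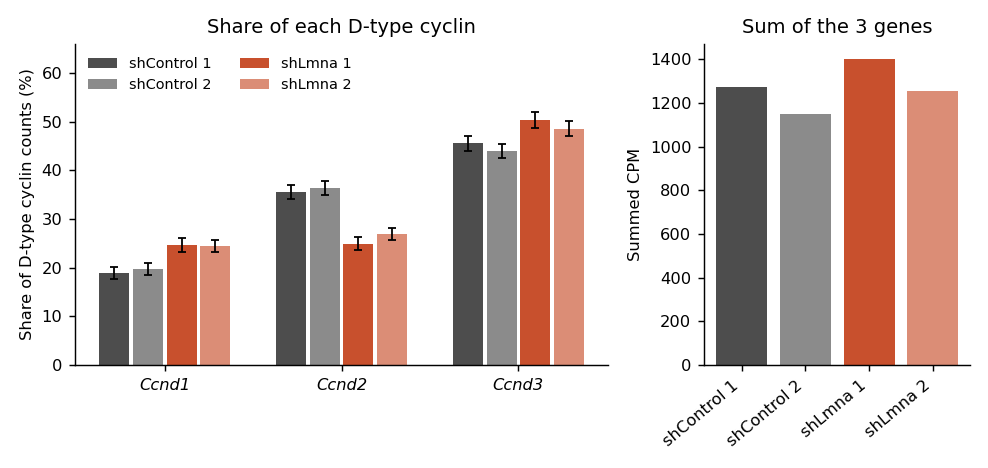
Left, the percentage of all D-type cyclin counts that came from Ccnd1, Ccnd2 and Ccnd3 in each library, with Wilson 95% intervals. Right, the summed CPM of the 3 genes in each library: Ccnd2 gives 35.5% and 36.3% in shControl against 25.0% and 26.9% in shLmna, while the sums of the groups overlap.

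The E-type cyclins were represented by Ccne1. Ccne1, which encodes cyclin E1, the activator of CDK2, had 265 and 386 counts (82.1 and 103 CPM) in shControl and 245 and 318 counts (96.9 and 86.6 CPM) in shLmna. The values of shLmna lay between those of the shControl libraries. For Ccne1 the log2 change was -0.02 (SE 0.152, 95% interval -0.36 to 0.32, edgeR adjusted p 0.947).

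Ccne2, which encodes the closely related cyclin E2, was counted 1 and 15 times (0.310 and 4.02 CPM) in shControl 1 and 2, never in shLmna, and did not pass the filter. Counts of 0 allow up to 1.19 CPM in shLmna 1 and 0.817 CPM in shLmna 2 at a floor of 3 counts per library. Against that floor the mean of shControl was at least 2.16-fold higher, a bound that rests on shControl 2 alone. Without it both groups were at or under the floor and no fold can be given. The counted bases of Ccne2 had the lowest GC content of the 10 genes, 28.7%, and the transcripts lowest in GC content varied in level between libraries. Genes with a GC content up to 34% gave 0.971% and 1.25% of all counts in shControl 1 and 2, and 0.655% and 0.716% in shLmna 1 and 2. Among the 333 tested genes of this kind the median log2 fold change was -1.26 and 50.2% were called lower, against 9.74% of all tested genes.

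Transcripts of the G1 kinases Cdk4 and Cdk2 were close in both groups, while Cdk6 was too low to compare. Cdk4, which encodes a kinase partner of the D-type cyclins, had 2735 and 3812 counts (847 and 1021 CPM) in shControl and 2049 and 3350 counts (810 and 913 CPM) in shLmna. The groups overlapped, and the 2 libraries of each group differed by more than the group means. For Cdk4 the log2 change was -0.12 (SE 0.130, 95% interval -0.41 to 0.17, edgeR adjusted p 0.596). Of its 31-base stretches, 4.80% occur in other genes.

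Cdk2, which encodes the partner of cyclins E and A, had 803 and 1116 counts (249 and 299 CPM) in shControl and 755 and 993 counts (299 and 271 CPM) in shLmna. The groups overlapped here too. Its log2 change was 0.05 (SE 0.136, 95% interval -0.25 to 0.36, edgeR adjusted p 0.833). The number of Ccne1 counts per Cdk2 count was 0.330 and 0.346 in shControl and 0.325 and 0.320 in shLmna.

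Cdk6, which encodes the second partner of the D-type cyclins, had 0 and 1 counts in the shControl libraries, against 0 and 2 counts in shLmna. Each library is therefore at or below its floor of 0.929, 0.803, 1.19 and 0.817 CPM in the order shControl 1 and 2, shLmna 1 and 2. Other genes that dividing cells use were also low: Cdk1, the kinase that drives mitosis, had 5 and 8 counts in the shControl libraries, against 9 and 13 in shLmna, and Mnat1, a subunit of the CDK-activating kinase, had none in any library. How fully these windows hold the 3′ ends of such transcripts was not tested. The summed level of Cdk4, Cdk6 and Cdk2 was 1208 ± 158 CPM in shControl and 1146 ± 52.9 CPM in shLmna (SD, n = 2 libraries each), with overlapping groups.

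Both inhibitors lay well below Cdk4 and Cdk2 in window counts, and above Cdk6. Cdkn2c, which encodes the INK4 inhibitor p18, had 131 and 165 counts (40.6 and 44.2 CPM) in shControl and 101 and 119 counts (39.9 and 32.4 CPM) in shLmna. The groups did not overlap, but shLmna 1 lay just under shControl 1. The change on the log2 scale was -0.24 (SE 0.183, 95% interval -0.65 to 0.17, edgeR adjusted p 0.422), and it ran from -0.38 without shLmna 1 to -0.07 without shLmna 2.

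Cdkn1b, which encodes the CIP/KIP inhibitor p27, had 11 and 32 counts (3.41 and 8.57 CPM) in shControl and 11 and 22 counts (4.35 and 5.99 CPM) in shLmna. Both shLmna values lay between the shControl values. For Cdkn1b the log2 change was -0.21 (SE 0.473, 95% interval -1.27 to 0.85, edgeR adjusted p 0.814), an interval that includes -1. Without shControl 1 the value was -0.69 and without shControl 2 it was 0.62. Cdkn1b also had the second-lowest GC content, 33.9%, and its value was 1.09 (edgeR adjusted p 0.102) when each library was corrected by mean deviations in bins of GC content.

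**Figure D3:**
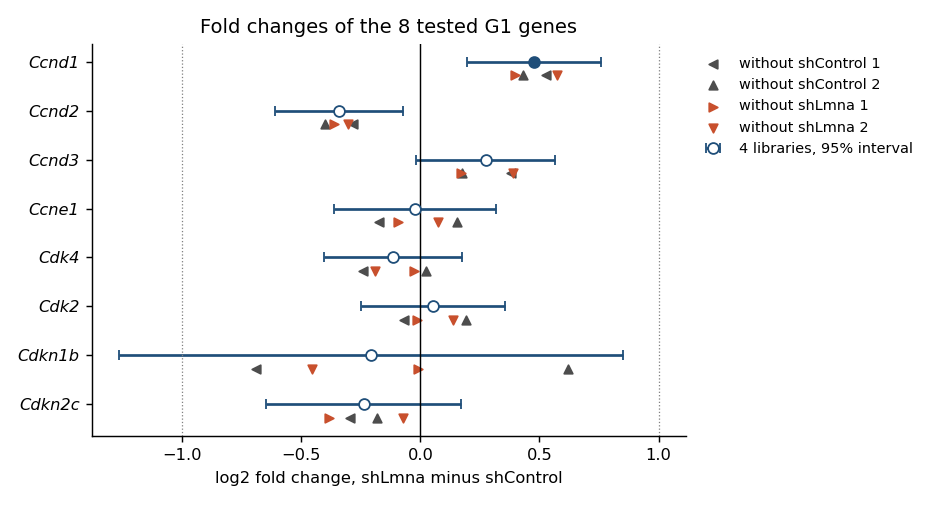
Log2 fold change of the 8 tested G1 genes, shLmna minus shControl, with 95% intervals from the 4 libraries and, below each, the 4 values with 1 library left out. The filled circle marks the gene with an edgeR adjusted p under 0.05, Ccnd1 at 0.48, and dotted lines mark -1 and 1.

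Among the other CDK inhibitors, Cdkn1a, which encodes p21, was lower after Lmna knockdown. Cdkn1a had 974 and 1123 counts (302 and 301 CPM) in shControl and 477 and 753 counts (189 and 205 CPM) in shLmna. The knockdown cells had a log2 change of -0.61 (SE 0.121, edgeR adjusted p 0.00853), with edgeR adjusted p of 0.102 without shLmna 1 and 0.0734 without shLmna 2. Cdkn2d, which encodes the INK4 inhibitor p19, had 459 and 405 counts in the shControl libraries, against 410 and 567 in shLmna (log2 fold change 0.34, edgeR adjusted p 0.158). Cdkn2a and Cdkn2b, the INK4 genes often lost in melanoma, had no count in any library, and Cdkn1c had 4, 4, 1 and 0.

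Cdkn1a thus had the most window counts of the inhibitor genes in every library. It was 63.5% ± 2.31 of the summed counts of Cdkn1a, Cdkn1b, Cdkn2c and Cdkn2d in shControl and 49.6% ± 2.68 in shLmna, and Cdkn2d went from 26.3% ± 4.002 to 39.9% ± 1.58 (SD, n = 2 libraries each). The sum of the 4 was 488 and 462 CPM in shControl and 395 and 398 CPM in shLmna, with shLmna below shControl. The number of Cdkn1a counts per Ccnd1 count was 1.25 and 1.33 in shControl and 0.546 and 0.669 in shLmna. Cdkn1a was called lower and Ccnd1 higher, so this ratio restates those calls and is no separate result.

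Downstream of the kinases, 5 of the 13 tested genes of the RB and E2F list were lower and 0 were higher, where 9.74% of all tested genes were lower and 5.48% higher. Of the 5, Rbl1 (GC content 32.5%), Rb1 (34.9%), Tfdp1 (35.5%) and E2f5 (38.8%) lay at or below 40%, and E2f8 at 42.8%. Among tested genes, 50.2% were called lower up to 34% GC, and 19.1% over 34% and up to 40%. After the correction by bins of GC content, Tfdp1 was at -0.645, against -1.09 in the main fit. Tfdp1, the DNA-binding partner of E2F proteins, had 364 and 503 counts in the shControl libraries, against 153 and 205 in shLmna (log2 fold change -1.09, SE 0.146, edgeR adjusted p 0.000958), and stayed under 0.05 in each fit with 1 library left out. E2f8, an E2F that represses transcription, had 206 and 264 counts against 53 and 136 (log2 fold change -1.18, edgeR adjusted p 0.00833), with an edgeR adjusted p of 0.0530 without shLmna 1.

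Rb1, which encodes RB itself, was counted 12 and 23 times in shControl 1 and 2, and in neither library of shLmna. At the floor of 3 counts per library the mean of shControl (3.72 and 6.16 CPM) was at least 4.93-fold higher (edgeR adjusted p 0.00500). This bound holds for the mean, and shControl 1 alone would give a smaller one. The call of Rb1 was lost without shLmna 2. Without shControl 2, Rb1 did not pass the filter and was not tested. Rbl1, which encodes the RB relative p107, had 142 and 138 counts against 59 and 47 (log2 fold change -1.20, edgeR adjusted p 0.0173). The call of Rbl1 was lost without shLmna 2 (0.161) and with the GC correction by a smooth curve (-0.93, adjusted p 0.0728), and the value was 0.06 after the correction by bins of GC content, its counted bases having a GC content of 32.5%. E2f5, an E2F that acts as a repressor, had 80 and 126 counts against 38 and 54 (log2 fold change -0.98, edgeR adjusted p 0.0227). The call of E2f5 was lost with DESeq2 (adjusted p 0.113) and without shControl 2 (0.0836), shLmna 1 (0.106) or shLmna 2 (0.145).

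The activating E2F genes gave other values. E2f1 had 392 and 434 counts in the shControl libraries, against 317 and 440 in shLmna (log2 fold change 0.04, edgeR adjusted p 0.848), and E2f2 and E2f3 had log2 fold changes of 0.07 and 0.20 (edgeR adjusted p 0.867 and 0.630). The median over the 13 genes was -0.03.

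Genes that E2F activates in S phase were described as a readout of this pathway. Of the 14 listed, 13 were tested, 1 was lower and 0 were higher, with a median log2 fold change of -0.07. One lower gene of 13 is near the background of 9.74%, and 5.48% of all tested genes were higher. Pcna, the sliding clamp of DNA replication, had 819 and 1259 counts against 384 and 679 (log2 fold change -0.81, edgeR adjusted p 0.00975). Its call was lost without shLmna 1 (0.105) and without shLmna 2 (0.0553), and 40.0% of its 31-base stretches occur in other genes, among them the pseudogene Pcna-ps2. Mcm2, Mcm3, Mcm4, Mcm6 and Mcm7, subunits of the replicative helicase, had log2 fold changes between -0.15 and 0.21, and Mcm5 had -0.39 (edgeR adjusted p 0.0689). Of the S and M phase cyclins with Cdk1, 5 of 6 were tested and 0 passed, and 1 had an unadjusted p under 0.05. DESeq2 also called 0 of them. Ccna2 and Ccnb1, cyclins of S phase and mitosis, had log2 fold changes of -0.14 and -0.01.

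Of the 4 genes that activate CDKs, 3 were tested, with 1 lower and 2 higher, against 9.74% and 5.48% of all tested genes. Cdk7, the CDK-activating kinase, had 7 and 7 counts in the shControl libraries, against 25 and 29 in shLmna (log2 fold change 2.11, SE 0.413, edgeR adjusted p 0.00825). The call of Cdk7 was lost with DESeq2 (adjusted p 0.0689), without shLmna 1 (0.102) and without shLmna 2 (0.0819). Ccnh, which encodes its partner cyclin H, had 157 and 217 counts against 76 and 96 (log2 fold change -0.93, edgeR adjusted p 0.00853). With a GC content of 30.6%, Ccnh stood at -0.56 (edgeR adjusted p 0.0649) after correction by a smooth curve of GC content and at 0.34 (0.266) after that by bins, and its adjusted p was 0.110 without shLmna 2. Cdc25a, the phosphatase that activates CDK2, had 376 and 404 counts against 386 and 599 (log2 fold change 0.49, edgeR adjusted p 0.0252). The call of Cdc25a was lost with DESeq2 (adjusted p 0.0665), without shControl 2 (0.0525), shLmna 1 (0.112) and shLmna 2 (0.188).

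In the list of 12 genes for the turnover of cyclins and p27, 10 were tested, 2 were higher and 0 were lower (all tested genes: 5.48% higher, 9.74% lower). Cul1, the scaffold of the ubiquitin ligase that marks p27 for degradation, had 437 and 595 counts in the shControl libraries, against 635 and 838 in shLmna (log2 fold change 0.70, SE 0.131, edgeR adjusted p 0.00678, and 0.0762 without shLmna 1). Skp2, the substrate receptor of that ligase, had 95 and 152 counts against 139 and 223 (log2 fold change 0.72, edgeR adjusted p 0.0308). The call of Skp2 was lost with DESeq2 (adjusted p 0.104), without shControl 1 (0.0627), shLmna 1 (0.107) and shLmna 2 (0.198). The other subunits Skp1a and Rbx1 and the cofactor Cks1b had log2 fold changes of -0.05, -0.09 and -0.19. Cul3, the scaffold of another ligase, missed the threshold (log2 fold change -0.77, edgeR adjusted p 0.0510).

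Among 26 other cyclins and CDKs, 21 were tested, with 2 lower and 3 higher, and 2 of 21 is close to the 9.74% lower over all tested genes (5.48% were higher). Ccni, which encodes cyclin I, had 229 and 286 counts in the shControl libraries, against 21 and 35 in shLmna (log2 fold change -3.03, SE 0.197, edgeR adjusted p 1.34e-05). Cdk17 had 44 and 78 counts against 6 and 9 (log2 fold change -2.82, edgeR adjusted p 0.000900). These 2 genes kept their calls in every alternative run, with GC contents of 35.8% and 33.4%. After the correction by bins of GC content the log2 fold change was -2.59 for Ccni and -1.55 for Cdk17. Ccng1, which encodes cyclin G1, a target of p53, had 212 and 313 counts against 306 and 398 (log2 fold change 0.61, edgeR adjusted p 0.0253). With a GC content of 33.1%, Ccng1 stood at 1.90 after the correction by bins. The call of Ccng1 was lost with DESeq2 (0.0517), without shLmna 1 (0.178) and without shLmna 2 (0.102). Cdk9, the kinase of transcription elongation, had 18 and 21 counts against 29 and 43 (log2 fold change 1.05, edgeR adjusted p 0.0440), and its call was lost whichever library was left out, with adjusted p between 0.0646 and 0.226, as well as with DESeq2 (0.364) and with recovered counts (0.0514). Ccnjl was higher by 1.03 (edgeR adjusted p 0.0489), from 17 and 30 to 36 and 49 counts, with adjusted p of 0.128, 0.221 and 0.194 without shControl 1, shLmna 1 and shLmna 2, and 0.316 with DESeq2. The call of Ccnjl was also lost with the GC correction by a curve (0.0649), with that by bins (0.0507) and with recovered counts (0.0595).

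**Figure D4:**
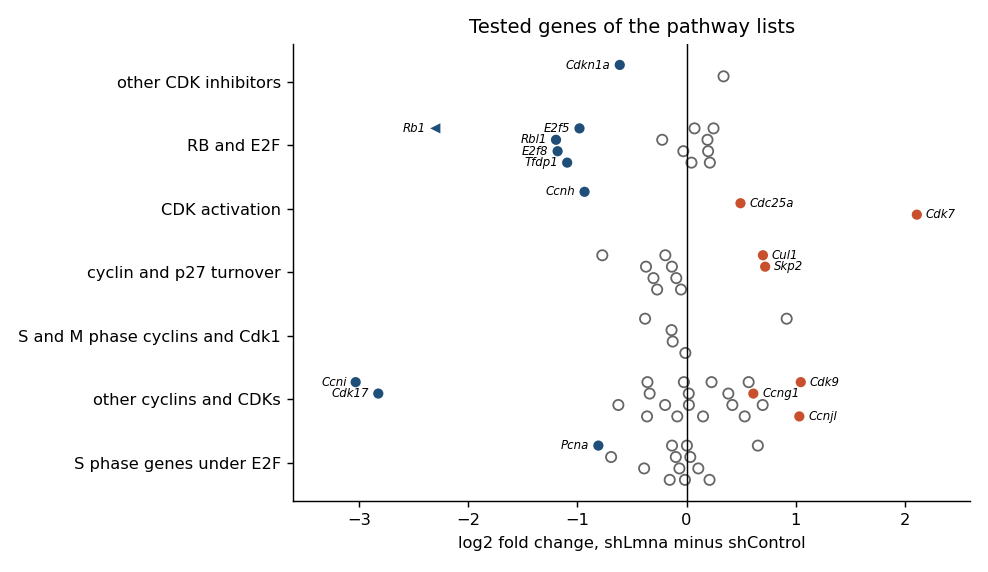
Log2 fold change, shLmna minus shControl, of every tested gene in 7 pathway lists, 1 point per gene, with small vertical shifts for legibility. Filled points are genes with an edgeR adjusted p under 0.05 (blue lower, orange higher). The triangle for Rb1 stands at its bound of at least 4.93-fold lower than the mean of shControl.

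Over the 7 lists, 67 of 80 genes were tested, 10 were lower and 7 were higher, beside 9.74% lower and 5.48% higher over all tested genes. No test compared the lists with other genes. Where edgeR gave 0 genes in one direction of a list, DESeq2 gave 0 as well. At an unadjusted p under 0.05 that direction held Cdkn2d (higher) among the other inhibitors, Cul3 (lower) in the turnover list, and 0 genes in the lists of RB and E2F and of S phase. Of the 17 genes called, 10 kept their call with DESeq2, 14 after either GC correction, and 14, 13, 6 and 5 without shControl 1, shControl 2, shLmna 1 and shLmna 2. Rb1 was not tested without shControl 2, so it is not among the 13. Fold changes also moved with the GC content of the last 1000 bases, and the cause was not tested. Among tested genes, those with a GC content over 34% and up to 40% had a median log2 fold change of -0.03 and 19.1% were called lower. The corresponding values were 0.07 and 5.12% for a GC content over 40% and up to 50%, and -0.05 and 6.88% above 50%. Of the tested G1 genes, 6 lay above 40%, Ccnd2 at 39.4% and Cdkn1b at 33.9%.

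**Figure D5:**
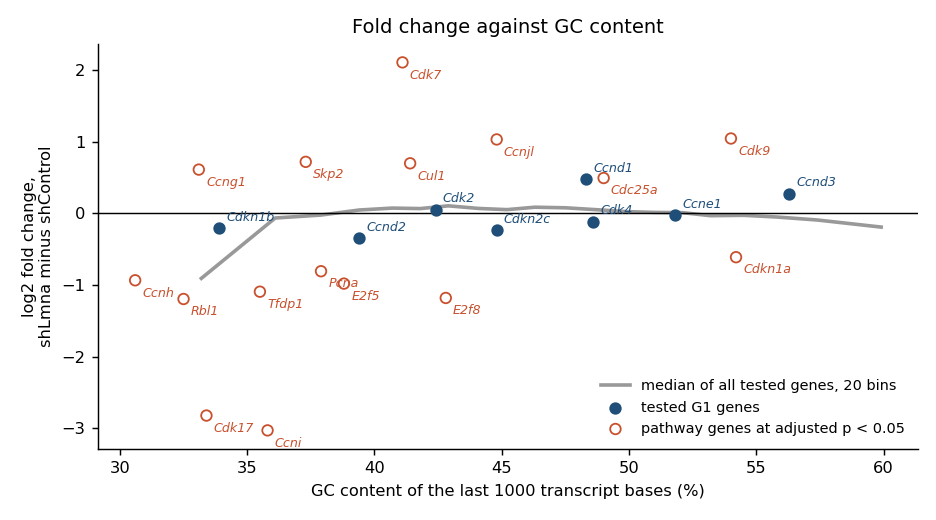
Log2 fold change, shLmna minus shControl, against the GC content of the last 1000 transcript bases, with the median of all tested genes in 20 equally filled bins as a grey line. Blue points are the 8 tested G1 genes and open orange points the pathway genes at an edgeR adjusted p under 0.05 other than Rb1. The line falls below 0 at the low end of GC content, where Cdkn1b, Rbl1, Ccnh and Cdk17 lie, and Ccng1 with a change above 0. It also lies below 0 at the high end, with -0.191 at a GC content of 59.9%.

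Promoters were read for motifs of the pathway. RefSeq promoter windows on GRCm38.p6, 250 bases before to 50 after a gene's start, matched 7 of the 10 genes in 9 windows (Ccnd3, Ccne1, Cdk2, Cdk4, Cdk6, Cdkn1b and Cdkn2c), and Ccnd1, Ccnd2 and Ccne2 were not matched. The E2F motif, searched on both strands as TTTCCCGC, TTTCGCGC, TTTGCCGC or TTTGGCGC, occurred in 1 of the 9 windows and in 2.26% of all 32851 windows. The CREB motif, searched as TGACGTCA or TAACGTCA on both strands, occurred in 0 of the 9 and in 2.03% of all. The window with the E2F match is that of Cdk2, at chr10:128705002-128705301 on the minus strand, printed because CDK2 is the kinase of cyclin E and its transcript level was close in both groups. Capitals mark the match, GCGGGAAA, the reverse complement of TTTCCCGC, 140 to 133 bases before the start.
Cdk2: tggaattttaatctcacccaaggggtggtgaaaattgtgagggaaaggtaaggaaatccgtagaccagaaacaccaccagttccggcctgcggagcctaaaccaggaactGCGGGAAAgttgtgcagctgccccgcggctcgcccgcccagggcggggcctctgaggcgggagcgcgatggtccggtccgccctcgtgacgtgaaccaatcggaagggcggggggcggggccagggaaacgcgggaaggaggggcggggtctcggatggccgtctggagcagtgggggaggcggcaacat
The match is a description of these letters only, and its use in these cells was not tested.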

How the data were processed

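Bulk MARS-seq (3′ end sequencing with molecular identifiers, UMIs) was analysed in 2 shControl and 2 shLmna libraries, grouped by sample title. The authors trimmed reads with cutadapt and aligned them to mm10 with STAR 2.4.2a. They counted reads in the last 1000 bases of each gene and a short stretch downstream with HTSeq. The study also reports a count of UMIs, made with a modified HTSeq-count once duplicates were marked. The deposited matrix holds raw counts, and whether it precedes the collapse of UMI duplicates is not given in the sources used here. The authors also deposited batch-corrected log2 values and a signal per library, counts divided by size factors. This signal came out as whole counts for 100% of values within 0.01 in each library. Over the genes in both, the matrix held 1.077 to 1.088 times these recovered counts, and the cause was not tested. The authors' p-values and adjusted p-values for the same contrast were not used.

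Counts were tested with edgeR 4.0.16 in R 4.3.3 (quasi-likelihood, TMM, filterByExpr, Benjamini-Hochberg adjustment over 9150 genes, two-sided), after the script was tested on simulated data. DESeq2 1.42.0, limma 3.58.1 on the log2 values, other scalings and filters, recovered counts, a replicate block, GC corrections and leaving out each library were alternatives. The correction by bins of GC content and the recovered counts for shares were chosen after seeing the data. A library left alone in its group was assumed to vary like the other group. GC content and the bases called counted came from 1 GENCODE M21 transcript per gene on GRCm38, the assembly of mm10. These windows may differ from the authors' RefSeq windows. Zero counts were bounded at 3 counts per library. All 10 members, Lmna, and list genes at adjusted p under 0.05 were named, at most 4 per list by p; further list genes were named after their values were seen. Members and lists were chosen with earlier results of these data known.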

Additional observations from a re-analysis of the deposited data

How the results depend on the processing

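The change of Ccnd1 was positive in all 15 alternatives (0.28 to 0.57) and under an adjusted p of 0.05 in 12, the exceptions being 3 of the fits with 1 library left out. Ccnd2 was below 0 in all 15 and under 0.05 in 3, and Ccnd3 above 0 in all 15 and under 0.05 in 3. Batch-corrected values are among the 15, and among those under 0.05 for each of these 3 genes. Their changes and SEs were smaller than in the main fit, for Ccnd1 0.285 (SE 0.0244) against 0.478 (SE 0.125). That correction came before the fit, so its p-values leave out any spread between libraries that it removed. For Ccnd2 the other calls under 0.05 came from fits with a replicate block. All alternatives reuse the same libraries, so the number under 0.05 is no measure of support. The sign of the smallest changes depended on the setting. Ccne1 was at 0.012 with library totals, 0.0015 with the GC correction by bin means, 0.012 (0.0116) with recovered counts and 0.0093 with batch-corrected values, and between -0.17 and 0.15 with 1 library left out. With 1 library left out, Cdk4 lay between -0.24 and 0.022, Cdk2 between -0.069 and 0.19, and Cdkn1b between -0.69 and 0.62. Cdk2 was at -0.012 with the GC correction by a curve and -0.0093 with that and the replicate block, and Cdkn1b at 0.010 and 0.033 (0.0325), and at 1.09 by bin means. By bin means Rbl1 was at 0.060 (0.0595), Ccnh at 0.34, Tfdp1 at -0.645, Cdk17 at -1.55 and Ccng1 at 1.90.

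Of the members, 0 were lower and 1 higher. With 1 library left out the counts ran from 0 to 1 lower and from 0 to 2 higher. One member was lower without a filter (1, Ccne2), with the replicate block (1, Ccnd2), with the block and GC correction (1, Ccnd2) and with batch-corrected values (1, Ccnd2), and 2 were higher in the last 2 of these, Ccnd1 and Ccnd3. Over all genes, 891 lower and 501 higher became 414 to 1329 and 89 to 775 with 1 library left out, and 538 and 161 past the 3 limits became 387 to 744 and 60 to 232. DESeq2 gave 236 higher (607 lower), and 74 past the limits. The replicate block gave 852 higher, the block with GC correction 791, and the GC correction by bin means 791, of which 370 were past the limits. Batch-corrected values gave 1988 lower and 1793 higher, with 28 and 2 past the limits. The cause was not tested.

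The share of D-type cyclin counts differed between groups by 4.87 to 5.64 percentage points for Ccnd1, by -10.96 to -9.02 for Ccnd2 and by 3.87 to 5.60 for Ccnd3 when 1 library was left out. Same-numbered libraries deviated together with a correlation of only 0.05, so the numbers were not taken to pair the libraries. Depth limits Ccne2, Cdk6 and Cdkn1b, which had at most 32 counts in a library.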
